A study of Mus musculus with 58 samples.

Results

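Transcripts of 10 genes of the E2F and pocket protein families were followed in bulk RNA-seq of mouse hematopoietic stem cells (HSCs). The genes were taken by symbol from the raw count tables: E2f1, E2f2, E2f3, E2f4, E2f6, E2f7, E2f8, Rb1, Rbl1 and Rbl2. They were 10 of the 55376 gene rows counted in every library, and all 10 passed the filter on low counts in each of the 11 comparisons made. The study asked how caloric restriction (CR) and refeeding act on HSCs of old and young mice, and how loss of the receptors Kdr and Bmpr1a acts on aged HSCs. It holds 34 RNA-seq libraries, of which 22 cover 6 diet groups and 12 cover 4 transplantation groups, beside ATAC-seq and ChIP-seq of old HSCs.

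HSCs of the diet groups were sorted from bone marrow of wild-type C57BL/6 male mice as LSK CD34-Flk2-CD150+ cells. Old mice were 24 to 26 months of age and were fed ad libitum (OAL, n = 4 libraries), held on 40% CR from 3 to 4 months of age (OCR, n = 4), or returned to ad libitum food for 4 weeks after that restriction (OCRRF, n = 2). Young mice of 3 to 4 months were fed ad libitum (YAL, n = 4), held on short CR of 4 weeks that began at 20% in its first week and went on at 40% (YCR, n = 4), or refed for 4 weeks after the short CR (YCRRF, n = 4). The study's scheme gives YAL 4 weeks of feeding and YCR 4 weeks of CR, so YCRRF ran 4 weeks longer. Refeeding and this added time cannot be told apart in the young groups. The restriction differed between old and young mice in length. For the knockdowns, aged HSCs were cultured, infected with lentivirus, and transplanted into lethally irradiated recipients, and donor HSCs were sorted at the end by another gate, LSK CD48-CD150+. The single knockdown carried a GFP-marked shRNA against Kdr (GFP_Kdr, n = 4) and had a GFP scramble as control (GFP_Scramble, n = 2). The double knockdown also carried an mCherry-marked shRNA against Bmpr1a, with shRNA1 in libraries 1 and 2 and shRNA2 in libraries 3 and 4 (Double_KdrBmpr, n = 4), and had a scramble with both colors (Double_Scramble, n = 2). All transplantation groups share culture, infection, irradiated hosts, this gate and a fluorescence sort that no diet group had. The study's methods also name another RNA extraction, cDNA kit number and sequencer for them. Effects of transplantation and of these steps cannot be told apart where transplantation and diet libraries differ. The labels do not tie libraries to single animals, although the study counts its diet replicates as mice, so p-values measure the spread between these libraries.

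E2F proteins bind promoters of genes used for DNA replication and cell division. E2F1, E2F2 and E2F3 are the activators of the family, E2F4 and E2F6 act mainly as repressors, and E2F7 and E2F8 are atypical repressors that bind without a dimerization partner and are themselves E2F targets. The pocket proteins RB (Rb1), p107 (Rbl1) and p130 (Rbl2) hold E2Fs in check until cyclin-dependent kinases phosphorylate them. RB binds mainly the activators, p107 is found mostly in cycling cells, and p130 is the pocket protein that with E2F4 and the MuvB core forms the DREAM repressor of quiescent cells. HSCs are mostly quiescent.

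Library totals ran from 11102898 to 36579392 counts in the diet groups, with YCRRF library 4 the shallowest, and from 35657999 to 44780217 counts in the transplantation groups. The lowest count of any of the 10 genes was 62 in a diet library and 199 in a transplantation library. Old libraries detected 42071 to 46646 genes, young libraries 22209 to 33496. Age and whatever made the libraries differ in this way cannot be told apart. The 7 HSC markers summed to 3330 to 4760 CPM (read counts scaled to library size) over the diet libraries and to 2440 to 3330 CPM over the transplantation libraries, and no HSC marker was at 0. Diet and transplantation libraries were scaled apart, so these ranges are not to be set against each other. Lymphoid markers stood apart in a few libraries: they summed to 182 CPM and 62.4 CPM in OAL libraries 1 and 3, against at most 3.26 CPM in OCR. In YCR libraries 1, 2, 3 and 4 they summed to 16.4, 635, 969 and 354 CPM. These libraries are named again where a result touches them.

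Levels of different genes were compared as CPM per kilobase of exon. In OAL, E2f4 (34.0 ± 1.62, SD, n = 4) and Rbl2 (30.9 ± 2.26) were the highest in CPM per kb, and their ranges overlapped. Rb1 followed at 18.8 CPM per kb, E2f6 at 15.1 and Rbl1 at 9.53, each apart from its neighbors in the order. E2f3 (5.03 CPM per kb) and E2f1 (4.71) overlapped, as did E2f7 (1.22) and E2f8 (1.16). E2f2 was the lowest at 0.71 CPM per kb. The old HSC fed ad libitum thus carried mostly the transcripts of E2f4 and p130 among these 10 genes. In OCR, E2f4 (34.4 CPM per kb) and Rbl2 (26.7) were still the highest, now without overlap, but E2f6 (16.1), Rb1 (15.6), Rbl1 (14.4) and E2f1 (11.0) formed a chain in which each overlapped the next. E2f1 had passed E2f3 (6.70 CPM per kb) with no overlap. E2f8 (3.60), E2f7 (2.48) and E2f2 (1.67) closed the order, each overlapping the next. Rbl2, Rb1, E2f7 and E2f8 share exon bases with other genes, as given below, and their lengths were not adjusted for this. Their places in these orders, and that of Rbl2 beside E2f4, may depend on how those reads were counted.

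Lifelong CR in old mice was compared with ad libitum feeding. The 3 activators, both atypical members and Rbl1 rose in OCR, by 1.34-fold for E2f3 to 3.14-fold for E2f8, and the 4 others did not pass the test. A gene was called changed where its adjusted p was below 0.05 and its fold change over 1.2 in edgeR's quasi-likelihood test, with Benjamini-Hochberg adjustment over all genes tested. These 6 of 10 members compare with 5.57% of all genes tested that were called in either direction. The median log2 fold change was 0.52 over the 10 members and 0.02 over all genes tested. Because the RNA is from bulk HSCs, more or fewer cells of a type and more or less RNA per cell cannot be told apart.

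E2f1, the activator that leads entry into S phase, had 14.4, 15.0, 16.7 and 13.3 CPM in the OAL libraries and 42.4, 39.4, 27.9 and 28.5 CPM in the OCR libraries. Every OCR library lay above every OAL library, with OCR libraries 1 and 2 the highest. The log2 fold change was 1.24 (SE 0.13, edgeR adjusted p = 1.18e-07). E2f2, the least abundant activator, had 3.50, 2.88, 4.17 and 3.31 CPM in OAL and 10.5, 8.10, 7.45 and 6.56 CPM in OCR. Again no libraries overlapped, and its log2 fold change was 1.25 (SE 0.18, adjusted p = 2.57e-05). E2f3 had 30.1, 26.5, 25.7 and 27.1 CPM in OAL and 38.9, 34.8, 37.3 and 34.4 CPM in OCR. Its groups were close but separate, with a log2 fold change of 0.43 (SE 0.10, adjusted p = 0.00501).

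The atypical members changed by more than E2f3. E2f7 had 13.5, 12.0, 8.31 and 10.1 CPM in OAL and 25.1, 25.8, 20.2 and 18.3 CPM in OCR. All OCR libraries were higher, and the log2 fold change was 1.04 (SE 0.15, adjusted p = 1.24e-05). E2f8 had 6.17, 6.21, 7.31 and 5.53 CPM in OAL and 23.7, 21.7, 18.8 and 14.2 CPM in OCR. The lowest OCR library lay well above the highest OAL library, and the log2 fold change was 1.65 (SE 0.15, adjusted p = 1.02e-08). E2f8 shares 610 exon bases with Gm2788 and E2f7 shares 86 with 1700020G17Rik, both on the opposite strand. The counting is not stated to use strand, so reads of these stretches cannot be assigned to either gene of the pair.

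The pocket protein genes went different ways. Rbl1 had 64.1, 60.1, 53.3 and 50.8 CPM in OAL and 76.8, 103, 86.9 and 78.0 CPM in OCR, where every library was higher. It rose by 0.61 on the log2 scale (SE 0.10, adjusted p = 1.07e-04). Rb1 had 107, 114, 117 and 115 CPM in OAL and 89.7, 104, 93.7 and 87.6 CPM in OCR. Each OCR library was below each OAL library, but the log2 fold change of -0.25 (SE 0.08) missed the threshold (adjusted p = 0.0671). Rbl2 had 242, 252, 229 and 212 CPM in OAL and 182, 209, 196 and 218 CPM in OCR. These overlapped, with a log2 fold change of -0.20 (95% interval -0.36 to -0.04, adjusted p = 0.207). Rb1 shares 408 exon bases with Lpar6 and 488 with Rcbtb2, and Rbl2 shares 693 with Aktip and 892 with Gm45464, all on the opposite strand.

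The repressor members had intervals around 0. E2f4 had 82.1, 84.5, 88.2 and 78.8 CPM in OAL and 89.4, 88.7, 78.0 and 80.9 CPM in OCR. The groups overlapped, and the log2 fold change was 0.03 (95% interval -0.13 to 0.19, adjusted p = 0.913), so a change in E2f4 as large as that of any of the 6 called members lies outside its interval. E2f6, a repressor that works without pocket proteins, overlapped as well, at 81.6 to 88.8 CPM in OAL and 76.9 to 103 CPM in OCR. Its log2 fold change was 0.10 (95% interval -0.07 to 0.28, adjusted p = 0.665).

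**Figure D1:**
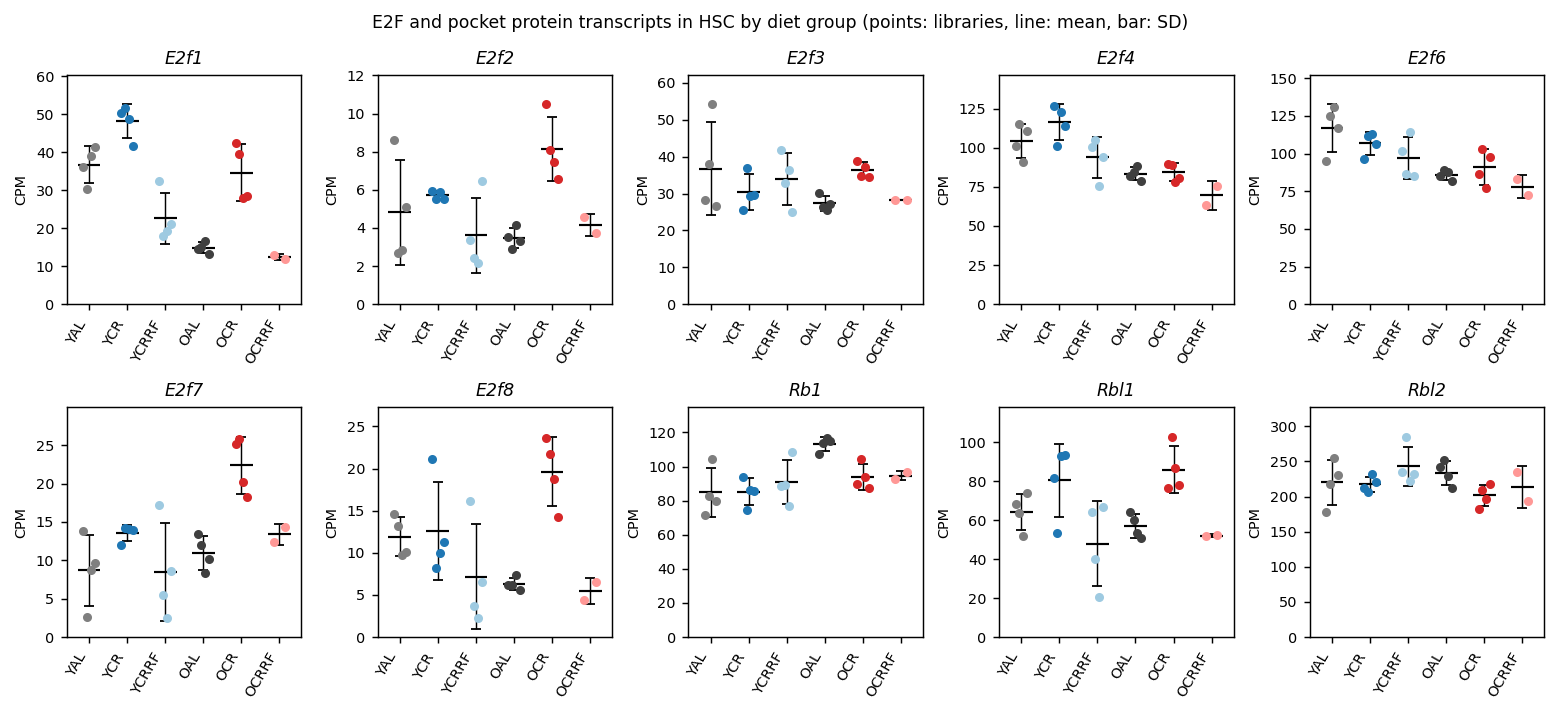
CPM of each of the 10 genes (vertical axes, linear from 0) in the 6 diet groups (horizontal axes). Points are libraries, lines are group means and bars are SD. E2f1, E2f2, E2f3, E2f7, E2f8 and Rbl1 are higher in all 4 OCR libraries than in all 4 OAL libraries, while E2f4, E2f6 and Rbl2 overlap.

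Other genes of the pathway were taken from lists. All 24 listed E2F target genes rose in OCR, with a median log2 fold change of 0.94 against 0.02 over all genes tested. The largest changes were in Rrm2, a subunit of ribonucleotide reductase (log2 fold change 1.61), the mitotic kinase gene Cdk1 (1.44), the origin licensing factor Cdc6 (1.38) and the cyclin gene Ccna2 (1.35). Of the 2 dimerization partners, Tfdp1 rose by 0.44 (adjusted p = 8.29e-04) and Tfdp2 did not pass the test. Of 7 genes of the MuvB core and its partners, Foxm1 (log2 fold change 1.40) and Mybl2 (1.34), which switch MuvB to activation of mitotic genes, rose, and the 5 core subunits did not pass edgeR's test, whereas DESeq2 called 3 of the 7 genes higher. Of 7 cyclin and kinase genes that act on pocket proteins, Ccne1 (1.28), Cdk6 (0.73), Ccnd1 (0.34) and Cdk2 (0.28) rose. None of the 6 genes of the E2F6 complex and none of the 5 CDK inhibitor genes was called by edgeR or by DESeq2. At an unadjusted p below 0.05 there were 1 and 0 of them.

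All 10 proliferation markers rose with the members, and their summed level was 126 to 153 CPM in OAL and 403 to 598 CPM in OCR. The part of cycling cells in the members' changes, or of the marker genes that follow, was not tested. Among the HSC markers Fgd5 (log2 fold change -0.50) and Procr (-0.47) fell, and the marker sums of 3840 to 4400 CPM in OAL and 3340 to 4030 CPM in OCR overlapped. Of 4 lymphoid markers 1 fell (Igkc), and of 4 erythroid markers 2 fell (Hbb-bs and Hba-a1), the erythroid sums being 24.6 to 175 CPM in OAL and 18.3 to 45.7 CPM in OCR. Without OAL libraries 1 and 3, which held the highest lymphoid sums, the same 6 members were called. When all 6 diet groups were put in 1 fit, with a shared estimate of the spread, filter and scaling, only E2f1 was called.

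Refeeding of restricted old mice was compared with continued restriction. E2f1, E2f2, E2f7, E2f8 and Rbl1 fell in OCRRF, to between 0.267 and 0.582 of their OCR level, and the 5 others did not pass the test. The 5 of 10 called members compare with 3.41% of all genes tested. The median log2 fold change was -0.60 over the members and 0.11 over all genes tested. This comparison shares its OCR libraries with the comparison above, so a high or low OCR value enters both.

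E2f1 had 13.0 and 11.9 CPM in the 2 OCRRF libraries, and its log2 fold change against OCR was -1.54 (SE 0.18, edgeR adjusted p = 1.54e-07). E2f8 had 4.41 and 6.58 CPM, with a log2 fold change of -1.90 (SE 0.21, adjusted p = 6.87e-08). Both libraries were below every OCR library for both genes. Rbl1 had 51.7 and 52.6 CPM, below the lowest OCR library, with a log2 fold change of -0.78 (SE 0.13, adjusted p = 1.46e-04). E2f2 had 4.57 and 3.75 CPM (log2 fold change -1.02, SE 0.24, adjusted p = 0.00739), and the call was lost without OCRRF library 2 (adjusted p = 0.265). E2f7 had 12.4 and 14.4 CPM (-0.80, SE 0.17, adjusted p = 0.00309), and its call was lost without OCRRF library 1 (adjusted p = 0.119). When all 6 diet groups were put in 1 fit, with a shared estimate of the spread, filter and scaling, only E2f1 kept its call. With TMM from genes of at least 5 CPM E2f2 lost it (edgeR adjusted p = 0.0502).

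Members that did not pass the test after refeeding included 2 whose OCRRF libraries both lay below all OCR libraries. E2f3 had 28.2 and 28.3 CPM (log2 fold change -0.42, adjusted p = 0.0830), and E2f4 had 63.1 and 75.8 CPM (-0.34, adjusted p = 0.140). DESeq2 called both. E2f6, Rb1 and Rbl2 overlapped between OCRRF and OCR, with log2 fold changes of -0.28, -0.05 and 0.03. Rb1 thus had 92.9 and 96.6 CPM after refeeding, within its OCR range and below its OAL range.

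All 24 E2F target genes fell on refeeding (median log2 fold change -1.17), led by Rrm2 (-1.78), Uhrf1 (-1.71), Ccna2 (-1.64) and Tk1 (-1.51). Tfdp1 (-0.83), Foxm1 (-1.50), Mybl2 (-1.43) and the MuvB subunit gene Rbbp4 (-0.43) fell too. Of the 7 cyclin and kinase genes 6 fell, with Ccne1 (-1.36), Cdk6 (-0.92), Ccnd1 (-0.85) and Cdk4 (-0.50) the most changed. Of 5 CDK inhibitor genes only Cdkn2d, which codes for p19INK4d, fell (-0.62). None of the 6 E2F6 complex genes was called by edgeR, where 3 had an unadjusted p below 0.05 and DESeq2 called 3, all lower. All 10 proliferation markers fell, their sum being 148 and 155 CPM in the 2 OCRRF libraries. Cell-type markers moved too: the megakaryocyte genes Pf4 (-1.06) and Itga2b (-0.47) and the HSC marker Kit (-0.49) fell, while the erythroid Hba-a1 (1.66) and Hbb-bs (1.56) rose by edgeR's test. DESeq2 called 1 megakaryocyte gene lower and none of the erythroid genes. The part of these lists in the members' changes was not tested. When TMM was computed from genes of at least 5 CPM, the median of all genes moved from 0.11 to 0.24 on the log2 scale, and changes are to be read relative to it.

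Refed old mice were also set against old mice that were never restricted. Of the members edgeR called only Rb1, lower in OCRRF at a log2 change of -0.27 (SE 0.07, edgeR adjusted p = 0.0458), where 4.14% of all genes tested were called. Its OCRRF values of 92.9 and 96.6 CPM lay below the OAL values of 107 to 117 CPM, but the call was lost without any 1 of the 6 libraries. E2f1 (log2 fold change -0.27, adjusted p = 0.222) and E2f4 (-0.28, adjusted p = 0.0677) were also below OAL in both libraries without passing edgeR's test. E2f4 was called lower by DESeq2 (adjusted p = 0.00564), by edgeR with RLE scaling factors (0.0240) and by edgeR without a filter on low counts (0.0306). The other 7 members overlapped. The 95% intervals of the log2 difference were -0.62 to 0.19 for E2f8, -0.34 to 0.05 for Rbl1 and -0.07 to 0.62 for E2f7, so differences of these sizes between refed and ad libitum mice were not resolved. Pcna, Mcm3, Mcm7 and Rrm1 were the 4 of 24 target genes called by edgeR, all lower, with log2 fold changes of -0.30 to -0.34, and DESeq2 called 9, all lower. Among cell-type markers Hlf (-0.40) and Kit (-0.38) of the HSC list were lower and the myeloid Mpo (2.52) was higher, and their part was not tested. Tfdp1 (-0.36), Ccnd1 (-0.48), Ccnd3 (-0.34), Cdk4 (-0.34), Cdkn2c (-0.65) and Cdkn2d (-0.51) were lower as well, and edgeR called no gene of the MuvB list, of the E2F6 complex or of the proliferation markers. At an unadjusted p below 0.05 there were 1, 2 and 0 of these, and DESeq2 called 1, 2 and 0. Here the direction depended on scaling: the share of called genes that were higher was 40.1%, and 93.3% when TMM was computed from genes of at least 5 CPM, which shifted the median of all genes from 0.12 to 0.26.

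**Figure D2:**
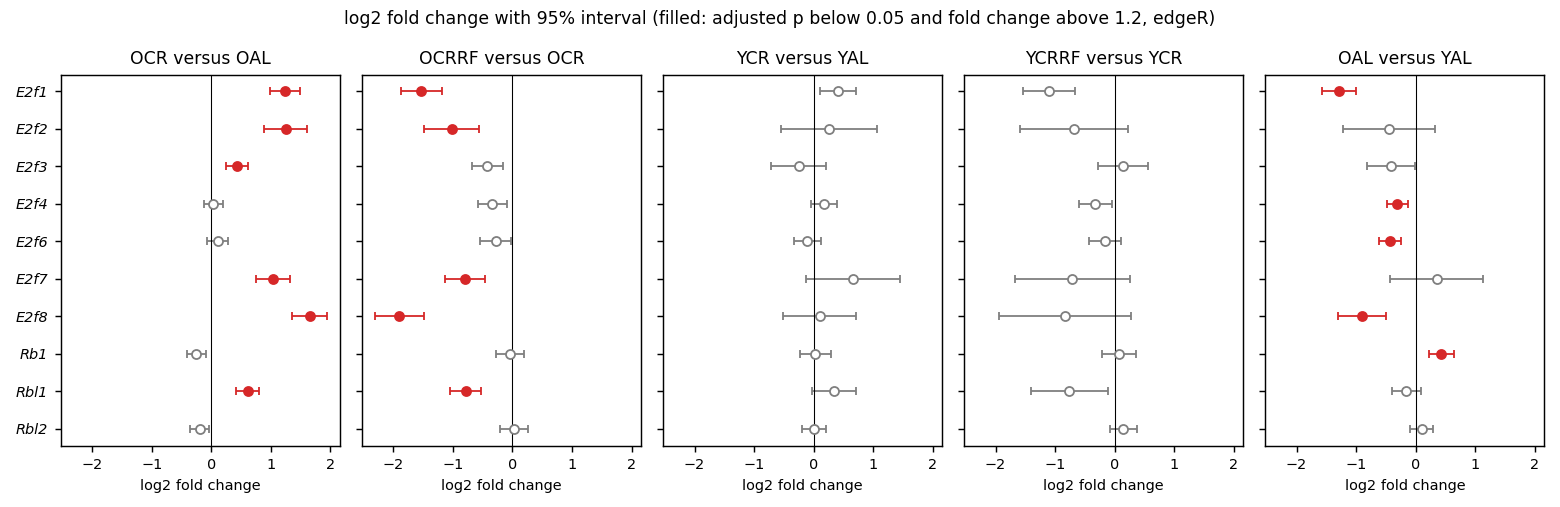
Log2 fold change of each of the 10 genes (horizontal axes, positive where the first-named group is higher) in 5 comparisons, with 95% intervals. Filled points passed an adjusted p of 0.05 and a fold change of 1.2 in edgeR; the 6 filled points of OCR against OAL lie to the right and the 5 of OCRRF against OCR to the left.

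Old and young HSCs under ad libitum feeding were compared next. E2f1, E2f4, E2f6 and E2f8 were lower and Rb1 was higher in OAL than in YAL, while 14.8% of all genes tested were called. E2f1 had 36.1, 30.3, 39.1 and 41.3 CPM in YAL, above every OAL library, and its log2 difference was -1.29 (SE 0.14, edgeR adjusted p = 4.45e-04). E2f8 had 14.6, 13.1, 9.75 and 10.2 CPM in YAL (log2 difference -0.90, SE 0.21, adjusted p = 0.0166). No library overlapped for either gene. E2f6 had 94.9, 125, 131 and 117 CPM in YAL (-0.43, adjusted p = 0.0146), and E2f4 had 101, 115, 91.0 and 111 CPM (-0.31, adjusted p = 0.0373). Rb1 had 71.5, 82.9, 105 and 80.0 CPM in YAL, where library 3 nearly reached the lowest OAL library (log2 difference 0.43, SE 0.11, adjusted p = 0.0231). The E2f1 call held in all 17 alternatives tried. Without OAL libraries 1 and 3 it was the only call left of the 5, and leaving out single libraries gave 1 to 5 calls.

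The 5 members that did not pass included Rbl1 (log2 difference -0.16, adjusted p = 0.421) and Rbl2 (0.10, adjusted p = 0.545), whose groups overlapped. E2f2, E2f3 and E2f7 had wide young ranges of 2.71 to 8.63, 26.6 to 54.1 and 2.58 to 13.8 CPM. Of the 24 target genes 17 were lower in OAL, led by Mcm5 (-1.09) and Cdt1 (-1.04). Tfdp1 (-0.37), Mybl2 (-1.09), Ccnd2 (-0.81), Cdk4 (-0.37), Cdk2 (-0.31) and the CDK inhibitor gene Cdkn1c (-0.65) were lower, while Cdkn2c was higher (1.16). Of 10 proliferation markers, Top2a (-0.83) and Ccnb1 (-0.72) were lower. Markers of other progenitors in the gate were all lower (3 of 3 called, sums of 129 to 160 CPM in OAL and 173 to 223 CPM in YAL). Of 4 lymphoid markers edgeR called 2 lower in OAL, with Cd79a at -4.23, and Cd3e higher (4.87). Of 4 erythroid markers it called only Klf1, lower (-1.77), while 2 estimates were above 0, the largest at 2.39. DESeq2 called 1 erythroid marker higher and 1 lower. Of 5 myeloid markers edgeR called only Mpo, lower (-6.20), and 0 estimates were above 0. Of 2 megakaryocyte genes tested, Itga2b was called higher (0.53) and the other, at -0.43, was not called. The part of these markers in the members' differences was not tested.

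Short CR in young mice gave no called member. By edgeR 48 of 18680 genes, or 0.257%, were called in YCR against YAL. Of the members, 1 had an unadjusted p below 0.05 and DESeq2 called none. E2f1 was that member, with 50.3, 51.6, 48.7 and 41.6 CPM in YCR against 30.3 to 41.3 CPM in YAL. All YCR libraries were higher, the lowest by a narrow margin, and the log2 fold change was 0.41 (95% interval 0.11 to 0.71, adjusted p = 0.408). The other 9 members overlapped. Rbl1 had 81.7, 53.6, 93.0 and 93.6 CPM in YCR against 51.9 to 73.8 CPM in YAL (log2 fold change 0.34, 95% interval -0.02 to 0.71), library 2 being the low library. E2f8 had 21.1 CPM in YCR library 1 and 8.17 to 11.2 CPM in the other libraries, so that its log2 fold change of 0.10 has a 95% interval of -0.51 to 0.71.

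None of the 24 E2F target genes was called by edgeR in young mice under CR, where 14 had an unadjusted p below 0.05 and DESeq2 called 6, all higher. All 24 estimates were above 0, with a median of 0.39 against 0.01 over all genes tested. Of the dimerization partners, MuvB, E2F6 complex, cyclin and kinase, and CDK inhibitor lists edgeR called no gene, and DESeq2 called 1 MuvB gene and 2 of the cyclins and kinases. Of the proliferation markers Top2a was called (log2 fold change 0.68), and the summed level of the 10 was 290 to 365 CPM in YCR and 189 to 217 CPM in YAL. Cell-type markers moved too, though edgeR called none of them. Of 7 HSC markers 3 had an unadjusted p below 0.05 by edgeR, and DESeq2 called 2 lower. Of 2 megakaryocyte genes tested, 2 had such a p, and DESeq2 called 1 higher. Megakaryocyte markers summed to 188 to 336 CPM in YCR and 134 to 201 CPM in YAL, which overlapped. Lymphoid markers summed to 16.4, 635, 969 and 354 CPM in YCR libraries 1, 2, 3 and 4, against 20.4 to 67.3 CPM in YAL. The part of the markers was not tested. Without YCR libraries 2 and 3 no member was called either, but library 4, with its high lymphoid sum, stayed in that fit.

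Young refed mice against restricted young mice gave no called member, and 2 of 19535 genes were called, or 0.0102%. At an unadjusted p below 0.05 there were 3 members. E2f1 had 32.5, 17.8, 19.2 and 21.1 CPM in YCRRF, each below every YCR library. Its log2 fold change was -1.10 (SE 0.22, edgeR adjusted p = 0.185), and DESeq2 called it. Rbl1 had 64.5, 40.3, 20.7 and 66.8 CPM in YCRRF (log2 fold change -0.76, 95% interval -1.41 to -0.12, adjusted p = 0.651). The spread within YCRRF was wide: E2f7 had 17.2, 5.43, 2.47 and 8.58 CPM, and E2f8 had 16.1, 3.71, 2.30 and 6.58 CPM. Library 1 was the highest of its group for E2f1, E2f7 and E2f8. None of the 24 target genes was called by edgeR, where 19 had an unadjusted p below 0.05 and DESeq2 called 11, all lower. Proliferation markers summed to 74.3 to 244 CPM in YCRRF, below all YCR libraries. Myeloid markers summed to 587 to 1590 CPM in YCRRF and 370 to 655 CPM in YCR, and the part of either list was not tested. Against YAL, YCRRF gave 0 called members and 0% of genes called by edgeR, with 714 genes and 1 member (E2f1, log2 fold change -0.69) at an unadjusted p below 0.05. DESeq2 called 15 genes and none of the members there.

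Whether the response to CR differed between old and young mice was tested as the difference between the OCR to OAL and the YCR to YAL changes. No member was called, and 12 of 28328 genes were, or 0.0424%. At an unadjusted p below 0.05 there were 4 members, and DESeq2 called E2f1 and E2f8. The difference was 1.55 on the log2 scale for E2f8 (SE 0.37, edgeR adjusted p = 0.181), 0.84 for E2f1 (SE 0.21, adjusted p = 0.209), 0.99 for E2f2 (SE 0.46, adjusted p = 0.551) and 0.70 for E2f3 (SE 0.25, adjusted p = 0.423), in each case with the larger change in old mice. Rbl1 (0.28, 95% interval -0.14 to 0.69) and E2f7 (0.39, 95% interval -0.48 to 1.26) had intervals that held 0. By edgeR the calls in old mice and their absence in young mice are therefore not shown to differ between the ages. DESeq2 gave adjusted p-values of 0.0137 for E2f1 and 0.00666 for E2f8, and edgeR called E2f8 without YCR library 1 (adjusted p = 0.0237). Of the 24 target genes Cdk1 was called (1.41), and of the proliferation markers Ccnb1 (1.45) and Top2a (1.27).

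Ratios between members of the same library need no scaling between libraries. E2f1 had 16.9 to 19.0 counts per 100 E2f4 counts in OAL, 35.3 to 47.5 in OCR and 15.7 to 20.5 in OCRRF. The OCR libraries lay apart from both other old groups, and OCRRF spanned the OAL range. In young mice the same ratio was 26.3 to 42.9 in YAL, 36.5 to 51.2 in YCR and 17.0 to 32.2 in YCRRF. There YCR overlapped YAL and lay above YCRRF. Rbl1 had 23.3 to 26.5 counts per 100 Rbl2 counts in OAL, 35.8 to 49.1 in OCR and 22.0 to 27.3 in OCRRF, and 20.4 to 38.2 in YAL, 25.9 to 42.5 in YCR and 9.32 to 28.7 in YCRRF. All 4 OCR libraries thus held more p107 transcript relative to p130 than any OAL or OCRRF library, and the ratio itself was not tested. The transplantation libraries lay above all diet libraries in the Rbl1 ratio, at 58.3 to 85.6 Rbl1 counts per 100 Rbl2 counts.

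**Figure D3:**
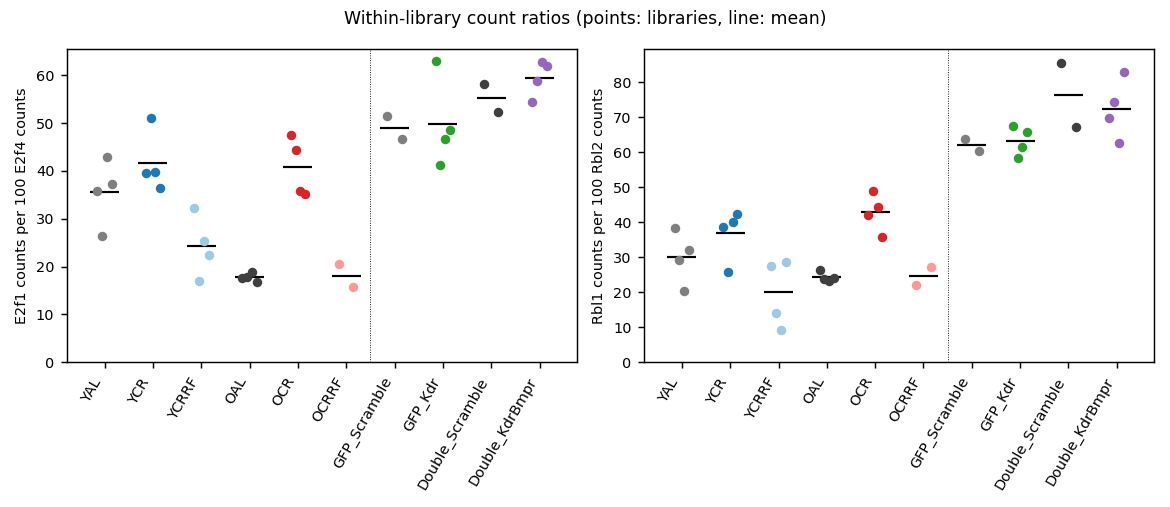
Counts of E2f1 per 100 counts of E2f4 (left axis) and of Rbl1 per 100 counts of Rbl2 (right axis) in each library, by group, with lines at the group means and diet groups to the left of the dotted line. OCR libraries sit between 35.3 and 47.5 and between 35.8 and 49.1, above every OAL and OCRRF library in both panels.

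Genes whose log2 CPM followed a member most closely over the 22 diet libraries were looked up among the 12326 genes averaging 5 CPM or more. These correlations are descriptions over libraries that share their group, depth and scaling. For E2f1 they were Fen1 (Pearson r = 0.961), Mcm3 (0.957), Mcm2 (0.955), Mcm6 (0.948) and Gm10143 (0.945). For Rbl1 they were Cenpi (0.931), Brip1 (0.926), Plk1 (0.897), Jpt2 (0.885) and Kif18a (0.876). E2f8 was followed by Knstrn (0.895), Cenpi (0.885), Tk1 (0.862), Cdca8 (0.862) and Dscc1 (0.859). Fen1 and the Mcm genes act in DNA replication, and Cenpi, Plk1, Knstrn, Cdca8 and Kif18a act in mitosis. For Rbl2 the closest were Gm45464 (0.847), which shares exon bases with it, D230025D16Rik (0.741), Dop1b (0.732), Madd (0.726) and Gm20707 (0.719). Among the members themselves E2f8 and Rbl1 had the highest coefficient (r = 0.811, n = 22) and E2f2 and Rbl2 the lowest (r = -0.662).

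The knockdown experiment asked what loss of Kdr, alone or with Bmpr1a, does in transplanted aged HSCs. The targeted genes were checked first. Kdr, which codes for the receptor VEGFR2, had 6.04 and 6.07 CPM in GFP_Scramble and 1.93, 2.21, 3.28 and 2.03 CPM in GFP_Kdr. Every knockdown library was lower (log2 fold change -1.35, SE 0.25, edgeR adjusted p = 0.247). In the double knockdown Kdr had 3.97 and 4.62 CPM in the scramble and 1.24, 0.555, 1.60 and 1.35 CPM with the shRNAs (-1.86, SE 0.37, adjusted p = 0.272). Bmpr1a, a BMP receptor gene, had 5.21 and 4.43 CPM in Double_Scramble and 4.44, 0.656, 2.22 and 0.595 CPM in Double_KdrBmpr (-1.29, adjusted p = 0.602). Library 1, with Bmpr1a shRNA1, lay within the scramble range, so the library labelled double knockdown replicate 1 did not show less Bmpr1a. Of the 2 targeted genes, DESeq2 called 1 lower in GFP_Kdr and 1 lower in Double_KdrBmpr, and edgeR called 0 in each.

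No member was called in either knockdown. In GFP_Kdr against GFP_Scramble 3 of 20098 genes were called by edgeR (0.0149%), 3 members had an unadjusted p below 0.05, and DESeq2 called none of the members. E2f4 had 121 and 120 CPM in the scramble and 141, 140, 134 and 132 CPM in GFP_Kdr (log2 fold change 0.18, SE 0.07, adjusted p = 0.502). Rbl1 had 126 and 111 CPM and then 139, 130, 144 and 145 CPM (0.24, SE 0.08, adjusted p = 0.458). Rbl2 had 197 and 184 CPM and then 206, 223, 234 and 220 CPM (0.21, SE 0.08, adjusted p = 0.475). For these 3 genes the knockdown libraries were all higher, with small gaps. The other 7 members overlapped, E2f1 at 62.4 and 55.9 CPM in the scramble and 88.6, 57.5, 62.3 and 64.0 CPM in the knockdown, and E2f8 at 35.0 and 28.0 CPM and 49.8, 32.2, 32.1 and 32.5 CPM. Library 1 of GFP_Kdr was the highest for both.

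In Double_KdrBmpr against Double_Scramble 1 of 20072 genes was called (0.00498%), 2 members had an unadjusted p below 0.05, and DESeq2 called none of the members. Rb1 had 75.3 and 64.8 CPM in the scramble and 51.6, 58.1, 57.0 and 61.0 CPM in the knockdown. All knockdown libraries were lower, with a log2 change of -0.30 (SE 0.09, edgeR adjusted p = 0.371). E2f4 was also lower in every knockdown library, at 123, 130, 135 and 136 CPM against 136 and 143 CPM, the nearest libraries being almost equal (-0.09, adjusted p = 0.692). Rbl2 had 177 and 192 CPM and then 211, 190, 221 and 231 CPM, with an overlap in library 2 (0.21, adjusted p = 0.471). The intervals of the other members were wide relative to their estimates, such as -0.18 to 0.22 for E2f1 and -0.33 to 0.29 for E2f8 on the log2 scale. The difference between the single and the double knockdown, each against its own scramble, gave 0 called members and 0% of genes called by edgeR, with 760 genes and 1 member at an unadjusted p below 0.05, and 3 genes and no member by DESeq2. That member was E2f4, with a difference of 0.27 (SE 0.08, adjusted p = 1.000).

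None of the 24 target genes, 10 proliferation markers or other pathway genes was called by edgeR in the knockdown comparisons. At an unadjusted p below 0.05 there were 5 target genes in the single and 2 in the double knockdown, and DESeq2 called 1 and 0 of them. In the single knockdown all 24 target genes and all 10 proliferation markers had estimates above 0, with medians of 0.17 and 0.33 on the log2 scale against -0.0023 over all genes tested. Of the proliferation markers 5 had an unadjusted p below 0.05 by edgeR and DESeq2 called 0, and DESeq2 called 1 cyclin or kinase gene, lower. The proliferation markers summed to 664 and 762 CPM in GFP_Scramble and 775 to 926 CPM in GFP_Kdr, every knockdown library being above both scramble libraries. In the double knockdown experiment the sums overlapped, at 1080 and 1280 CPM in the scramble and 966 to 1400 CPM in the knockdown. There 13 of 24 target genes and 4 of 10 proliferation markers had estimates above 0, with medians of 0.009 and -0.008 on the log2 scale. Cell-type markers differed as well. HSC markers summed to 3110 and 3330 CPM in GFP_Scramble and 2570 to 2980 CPM in GFP_Kdr, and progenitor markers to 399 and 475 CPM against 493 to 589 CPM, neither with overlap. edgeR called none of these markers in GFP_Kdr, 5 HSC and 2 progenitor markers had an unadjusted p below 0.05, and DESeq2 called 3 HSC markers lower and 2 progenitor markers higher. In the double knockdown experiment progenitor markers summed to 496 and 541 CPM in the scramble and 592 to 925 CPM in the knockdown. The part of these lists in the members' values was not tested. In the GFP_Scramble libraries the order per length was E2f4 (49.1 CPM per kb), Rbl2 (25.2), Rbl1 (19.7), E2f1 (18.7) and E2f6 (18.6), with overlaps from Rbl1 to E2f6, and then Rb1 (12.6). E2f1 lay above Rb1 there in both libraries, and below it in all OAL libraries. The diet and transplantation libraries were scaled apart, so only orders within a group are given.

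**Figure D4:**
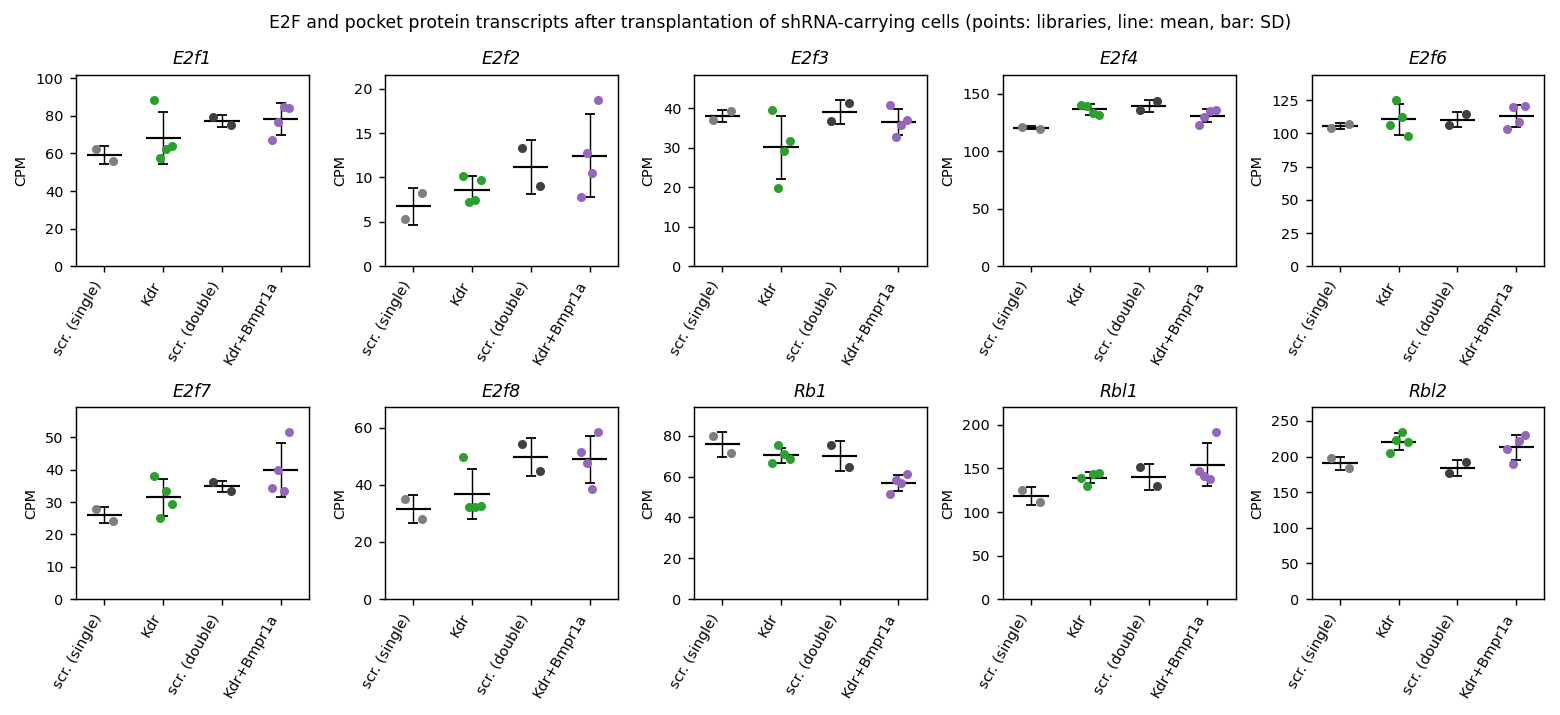
CPM of each of the 10 genes (vertical axes, linear from 0) in the transplantation groups: scramble of the single knockdown, Kdr knockdown, scramble of the double knockdown, and Kdr with Bmpr1a knockdown. Points are libraries, lines are means and bars are SD; E2f4, Rbl1 and Rbl2 are higher in all Kdr libraries than in their scramble, and Rb1 is lower in all 4 double knockdown libraries than in theirs.

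Chromatin at the promoters was measured in old HSCs. ATAC-seq counts in peaks were compared between OCRRF (n = 2) and OCR (n = 4), with 15721335 to 19558148 counts in peaks per library. All 10 members had a peak within 1000 bases of a start site, E2f3 had 2, and none of the 11 peaks was called (adjusted p below 0.05, fold over 1.5, mean over 1.5 log2 CPM), where 0.221% of 123372 peaks were called by edgeR. Unadjusted p-values were below 0.05 for 14437 of all peaks, and DESeq2 called 194 peaks and no member's. The E2f1 peak (chr2:154569082-154570470) had 43.5, 39.7, 36.4 and 40.5 CPM in OCR and 33.1 and 28.9 CPM in OCRRF. Both refed libraries were lower, with a log2 fold change of -0.37 (SE 0.09, adjusted p = 0.0342), under the fold change asked for. The peaks of Rbl1 (-0.27, adjusted p = 0.396) and E2f2 (-0.59, adjusted p = 0.411) were also lower in both refed libraries, the latter at a mean of 1.39 log2 CPM. The peaks of Rbl2 (0.15, adjusted p = 0.421) and E2f3 (0.13 and 0.10) were higher in both. For E2f8, whose transcript fell the most, the peak had 95.1, 105, 96.4 and 89.2 CPM in OCR and 92.1 and 89.8 CPM in OCRRF, which overlapped (log2 fold change -0.08, SE 0.06). ATAC-seq of OAL was not analysed here.

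**Figure D5:**
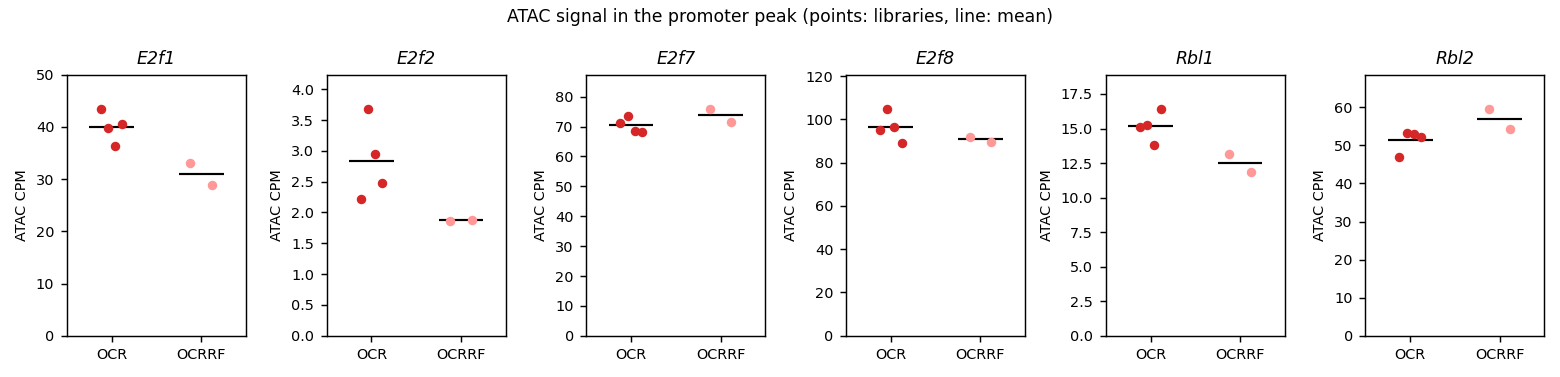
ATAC-seq CPM in the promoter peak of 6 members (vertical axes, linear from 0) in OCR and OCRRF; points are libraries and lines are means. The refed libraries are lower at E2f1, E2f2 and Rbl1, higher at Rbl2, and overlap OCR at E2f7 and E2f8.

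Promoter sequence of 8 of the 10 members was found in a RefSeq table of build GRCm38.p6, E2f4 and Rb1 being the others, and the 250 bases before each start were searched on both strands. The E2F words TTTGGCGC, TTTCGCGC, TTTCCCGC and TTTGCCGC were sought, and TTTGAA, the CHR element bound by MuvB complexes. At least 1 E2F word was in the windows of 3 members and TTTGAA in those of 4, where 1.86% and 16.0% of all 32851 promoters held them. The 8 members had 10 windows, whereas these shares are per window. Shown are the windows of 4 genes that rose under lifelong CR, E2f3 and E2f7 with TTTCCCGC (in 0.895% of promoters), Rbl1 with TTTCGCGC (in 0.256%) and E2f8, the most changed, with TTTGAA only. Capitals mark the matches, the sequences run 5' to 3' on the gene's strand and end at the base before the start, and a match is a description of letters, not a measured binding site.
E2f3, chr13:29986064-29986313, minus strand: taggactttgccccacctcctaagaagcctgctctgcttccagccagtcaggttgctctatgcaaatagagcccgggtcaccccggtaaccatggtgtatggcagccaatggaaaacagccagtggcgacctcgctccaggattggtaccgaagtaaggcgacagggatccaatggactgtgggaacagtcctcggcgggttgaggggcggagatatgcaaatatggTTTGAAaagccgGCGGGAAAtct
E2f7, chr10:110745189-110745438, plus strand: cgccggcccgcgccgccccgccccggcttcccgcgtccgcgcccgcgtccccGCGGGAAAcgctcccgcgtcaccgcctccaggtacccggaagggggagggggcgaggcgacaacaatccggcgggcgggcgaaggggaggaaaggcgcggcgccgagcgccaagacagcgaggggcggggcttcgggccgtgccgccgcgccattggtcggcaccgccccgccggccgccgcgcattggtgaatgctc
E2f8, chr7:48881597-48881846, minus strand: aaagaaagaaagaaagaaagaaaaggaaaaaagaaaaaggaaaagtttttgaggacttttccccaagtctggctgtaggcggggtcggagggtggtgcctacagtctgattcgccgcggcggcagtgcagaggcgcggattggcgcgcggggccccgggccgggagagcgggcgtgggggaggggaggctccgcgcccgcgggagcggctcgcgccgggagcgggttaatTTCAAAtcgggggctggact
Rbl1, chr2:157204535-157204784, minus strand: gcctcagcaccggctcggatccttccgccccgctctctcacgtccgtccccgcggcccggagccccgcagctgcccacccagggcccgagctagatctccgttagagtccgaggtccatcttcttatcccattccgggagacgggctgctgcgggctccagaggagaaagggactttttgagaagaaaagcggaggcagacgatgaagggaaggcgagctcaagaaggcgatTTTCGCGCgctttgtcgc

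In these windows the E2F word lay 11 to 4 bases before the start in E2f3 and 198 to 191 bases before it in E2f7, both on the opposite strand, and 18 to 11 bases before it in Rbl1. TTTGAA lay 23 to 18 bases before the start in E2f3 and, on the opposite strand, 20 to 15 bases before it in E2f8. Rbl2 also held TTTGAA. E2f2 held it only in the window of a start that lies within the gene, and not in the window of its other start. E2f1 and E2f6 held none of the searched words in the windows of this table, whose E2f1 start also lies within the gene.

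Histone marks were available for OCR HSCs in 2 libraries each, as the authors' signal in windows at start sites. These windows were 750 bases long for H3K4me3 and 2000 bases long for H3K27me3. The study's methods describe a wider window on both sides of the start for H3K4me3 and a downstream one for H3K27me3. H3K4me3, a mark of active promoters, had its highest window above the median of 25127 genes for all 10 members in both libraries, from percentiles 54.5 and 54.0 for E2f1 to percentiles 98.1 and 96.7 for Rbl2. Rbl1 was at percentiles 89.1 and 92.1 and E2f4 at percentiles 87.9 and 85.3. H3K27me3, a mark laid by Polycomb, was at most 0.719 signal units at any member, against a median of 0.341 and 0.344 over all genes. E2f2, E2f7 and E2f8 were above that median in both libraries, at percentiles 62.7 to 71.1, and Rbl2 was at percentiles 15.1 and 5.2. With only OCR libraries used, these are levels and not changes.

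PU.1, a transcription factor of blood cells, was mapped by ChIP-seq in 2 libraries of each old group, with peaks called per library by the authors. In OCR 1 member, E2f8, had a peak within 1000 bases of a start in both libraries, where 3.10% of 21840 genes did. In OAL and OCRRF no member did, where 2.08% and 1.55% of genes did. The E2f8 peak had a fold enrichment of 5.54 and 5.60 in OCR libraries 1 and 2 and of 6.89 in OAL library 1, and none was listed in OAL library 2 or in OCRRF. The peak was thus listed in a library of both OCR and OAL. E2f4 had a peak in OCR library 1 only (fold enrichment 8.87). The methods name a pair of PU.1 antibodies without saying which library used which. A peak that is not listed may lie under the caller's threshold, and libraries listed 2262 to 5464 peaks.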

How the data were processed

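RNA-seq, ATAC-seq and ChIP-seq of sorted mouse HSCs were used. The members and gene lists were chosen with earlier results of these data known. Per the labels and methods, the authors mapped reads to mm10 (STAR for RNA, BWA for chromatin). RNA values are raw counts per gene from featureCounts, as deposited; strand and multi-mapping settings are not given in the sources used here. ATAC-seq values are counts in consensus peaks merged by the authors. Histone values are the signal in windows at start sites, scaled by the authors. PU.1 peaks, with fold enrichment, a score and -log10 q as deposited, were called by the authors with MACS2 in each library; the score was not used further.

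From the counts, genes passing filterByExpr were tested with edgeR 4.0.16 (TMM, quasi-likelihood, R 4.3.3), fitting only the groups compared, and p-values were adjusted over all genes (Benjamini-Hochberg). CPM use TMM factors set separately over the 22 diet and the 12 transplantation libraries. Intervals (95%) are the estimate with 1.96 SE on either side. The fit was tested on simulated data. DESeq2 1.42.0, RLE factors, TMM from genes of at least 5 CPM, other count filters, a fit over all groups, a replicate block and left-out libraries were tried. A robust fit and fits without OAL libraries 1 and 3 or YCR libraries 2 and 3, which had the highest lymphoid marker sums of their groups, were chosen after seeing the data. Exon lengths and overlaps are from GENCODE M21 (GRCm38), not the M22 of the authors. Named list genes are at most 4 called genes per list and comparison, by size of change; for likeness, the 5 genes of highest correlation. No replicate pair agreed within sampling noise (lowest chi-square per gene 8.17 over 45 pairs). Totals of 11102898 to 44780217 counts per library limit precision for the least abundant members. The values of 2 marker genes are not reported here.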

Additional observations from a re-analysis of the deposited data

Results flagged for a closer look

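Of 95 groups of 4 libraries, 4 held a library far from the others by Dixon's test, and chance gives about 1 in 20. E2f7 in YCR library 1 was the lowest at 12.0 CPM, the nearest other being at 13.9 CPM. E2f8 in GFP_Kdr library 1 was the highest at 49.8 CPM, the nearest being at 32.5 CPM. Rbl1 in Double_KdrBmpr library 4 was the highest at 191.5 CPM, the nearest being at 147 CPM. The ATAC-seq peak within E2f3 had 68.8 CPM in OCR library 4, against 75.5 CPM or more in the other OCR libraries.

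E2f4 passed the test in neither knockdown, but all GFP_Kdr libraries were above their scramble libraries (log2 fold change 0.179) and all Double_KdrBmpr libraries below theirs (-0.0918), the latter by under 0.1 CPM at the nearest pair. The test of that difference gave 0.27 on the log2 scale, with an edgeR adjusted p of 1.000.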

How the results depend on the processing

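The 17 called changes never turned direction: of 271 recomputed values 223 kept their call and 48 lost it. E2f1 kept its call in every alternative of OCR against OAL, OCRRF against OCR and OAL against YAL. With all diet groups in 1 fit, the called members went from 6 to 1 in OCR against OAL, from 5 to 1 in OCRRF against OCR, from 1 to 0 in OCRRF against OAL, from 5 to 3 in OAL against YAL and from 0 to 1 in YCRRF against YCR; the cause was not tested. In OCRRF against OAL the count was 2 with DESeq2, RLE factors or no filter, and 0 with TMM from genes of at least 5 CPM, with at least 10 counts in every library, or with any 1 library left out (0 to 0). In YCRRF against YCR it was 1 with DESeq2 and 2 without a filter. In OAL against YAL it was 3 with TMM from genes of at least 5 CPM, 1 without OAL libraries 1 and 3, and 1 to 5 with single libraries left out (1 without OAL library 1 or 4, 2 without library 2, 3 without library 3). The old minus young difference gave 2 with DESeq2 and 0 to 1 with single libraries left out (E2f8, without YCR library 1). Double_KdrBmpr gave 1 (Rb1) at an unadjusted p, and PU.1 peaks at a -log10 q of at least 5 left 0 members.

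Replicate numbers did not pair the libraries (correlations of same-numbered deviations -0.177 to 0.167; at best 2 of 2 libraries matched their own number, in GFP_Kdr, and in 4 comparisons 0 of 4). With the number as a replicate block, the called members were 0 in OCRRF against OAL, 3 in OAL against YAL, 7 in OCRRF against OCR and as before elsewhere. In the comparisons with OCRRF, and in GFP_Kdr, this fit held only the libraries whose numbers both groups share. There the block and the left-out libraries cannot be told apart. Without OCR library 3 alone, OCRRF against OCR also gave 7 members. In the double knockdown, and in its difference from the single, a replicate block on the number in the sample titles, added after seeing the data, called 0 members. The fit of the difference left out the GFP_Kdr libraries whose numbers the other groups lack.

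Reversed values were all of changes not called. In OCRRF against OCR, Rb1 was 0.091 (TMM from genes of at least 5 CPM) and 0.014 (1 fit), and Rbl2 -0.034 (DESeq2 and RLE factors). In OCRRF against OAL, E2f3 was -0.02 (DESeq2 and RLE), and Rbl1 was 0.0015 and Rbl2 0.0044 (TMM from genes of at least 5 CPM). In YCR against YAL, Rbl2 was -0.015 (no filter), -0.017 (1 fit) and -0.0080 (without YCR libraries 2 and 3). With Bmpr1a shRNA1 only, E2f1 was -0.10, E2f2 -0.11 and E2f8 0.0011. In the single minus double difference, Rbl2 was -0.0033 (TMM from genes of at least 5 CPM) and -0.044 (replicate block).

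With single libraries left out, the following log2 changes, none called, took both signs. In OCR against OAL, E2f4 -0.0013 to 0.064. In OCRRF against OCR, Rb1 -0.10 to 0.019, Rbl2 -0.16 to 0.22. In OCRRF against OAL, E2f8 -0.53 to 0.034. In YCR against YAL, E2f8 -0.26 to 0.25, Rb1 -0.054 to 0.14, Rbl2 -0.092 to 0.073. In YCRRF against YCR, Rb1 -0.024 to 0.15. In YCRRF against YAL, E2f2 -0.86 to 0.029, E2f3 -0.23 to 0.14, E2f7 -0.66 to 0.27. In Double_KdrBmpr against Double_Scramble, E2f1 -0.021 to 0.090, E2f2 -0.10 to 0.46, E2f6 -0.017 to 0.10, E2f8 -0.14 to 0.12. In single minus double knockdown difference, E2f2 -0.11 to 0.55, E2f6 -0.036 to 0.084, E2f7 -0.026 to 0.23, Rbl1 -0.019 to 0.22, Rbl2 -0.066 to 0.064.

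Counts over all genes moved more than those of the members. Called genes went from 1511 to 212 in OCR against OAL (1 fit), from 1110 to 64 (1 fit) and 2889 (replicate block) in OCRRF against OCR, from 1316 to 0 (1 fit) and 3835 (DESeq2) in OCRRF against OAL, from 48 to 1 (without YCR libraries 2 and 3) and 452 (DESeq2) in YCR against YAL, from 2 to 0 (replicate block) and 538 (1 fit) in YCRRF against YCR, from 0 to 40 (no filter) in YCRRF against YAL, from 3486 to 231 (without OAL libraries 1 and 3) and 6671 (no filter) in OAL against YAL, and from 12 to 0 (without OAL libraries 1 and 3 and YCR libraries 2 and 3) and 182 (DESeq2) in the old minus young difference. The knockdowns went from 3 to 302 in GFP_Kdr and from 1 to 332 in Double_KdrBmpr with DESeq2 (0 with the replicate block), and their difference from 0 to 5 without a filter. Called ATAC-seq peaks went from 273 to 779 with the replicate block and to 98 without OCRRF library 1. The replicate block fits of OCRRF against OCR, for RNA and for ATAC-seq, also left out the OCR libraries whose numbers OCRRF lacks. Leaving out OCR library 3 alone gave 2755 called genes for RNA, so their counts are not those of the block alone. With TMM from genes of at least 5 CPM, the share of called genes that were higher went from 45.6% to 56.2% in OCR against OAL, from 20.4% to 37.3% in OCRRF against OCR and from 46.5% to 70.5% in OAL against YAL.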
